A study of Mus musculus with 4 samples.

Results

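Expression of 10 genes of glycolysis and lactate metabolism, *Hk1*, *Hk2*, *Gpi1*, *Pfkp*, *Pfkl*, *Aldoa*, *Eno1*, *Pkm*, *Ldha* and *Ldhb*, was examined in undifferentiated spermatogonia (A_undiff) from control (CTRL) and busulfan-treated (BU) mice. The genes were chosen by symbol, and all 10 were found among the 27514 genes listed in all 4 libraries. A_undiff are the germ cells of the testis that hold the spermatogonial stem cells and the progenitors made from them, and busulfan is an alkylating drug that depletes spermatogonia. Single-cell RNA sequencing (10x Chromium, counting unique molecular identifiers, UMIs, from the 3′ end of transcripts) was performed in 2 experiments, each with 1 CTRL and 1 BU library. CTRL mice were untreated wild-type C57BL/6J adults of 6 to 8 weeks. BU mice were of the same strain and age, and their testes were taken 10 days after 1 dose of busulfan at 10 mg/kg. Each library was made from cells pooled from 3 mice and sorted as E-cadherin+ CD49f+ c-KIT-, so that variation between single animals was not measured.

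Glycolysis splits glucose into pyruvate in the cytosol and yields ATP without oxygen. Hexokinases (*Hk1*, *Hk2*) trap glucose as glucose-6-phosphate, glucose phosphate isomerase (*Gpi1*) converts it to fructose-6-phosphate, and phosphofructokinase (*Pfkp*, *Pfkl*) carries out the committed step. Aldolase A (*Aldoa*) cleaves the product into 3-carbon sugars, enolase 1 (*Eno1*) makes phosphoenolpyruvate, and the muscle-type pyruvate kinase gene (*Pkm*) makes pyruvate. Lactate dehydrogenase interconverts pyruvate and lactate, and is assembled from A subunits (*Ldha*) and B subunits (*Ldhb*). In the testis, Sertoli cells export lactate that later germ cells burn, and spermatogenic cells carry germline-specific copies of several glycolytic enzymes. Hypoxia-inducible factors and MYC proteins are known regulators of many of these genes.

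After removal of cells with 1000 or fewer genes or with 20% or more mitochondrial UMIs, 3101 cells of CTRL 1, 2008 of BU 1, 1120 of CTRL 2 and 1264 of BU 2 were kept. The deposited matrices held between 21136369 and 53579969 UMIs, and the median depth of kept cells was 8066 to 9858 UMIs in experiment 1 and 30931 to 34177 in experiment 2. A cell was called Gfra1+, Sox3+ or Kit+ when the natural log of 1 plus its UMIs of that gene per 100000 was above 2. *Gfra1* marks the stem cell-enriched compartment, *Sox3* marks progenitors, and *Kit* marks the onset of differentiation. The Gfra1+ class held 585, 865, 214 and 528 cells in CTRL 1, BU 1, CTRL 2 and BU 2, in the same order the Sox3+ class held 1470, 473, 646 and 264 cells, and the Kit+ class held 36, 322, 37 and 156 cells. Deeper cells need more UMIs to pass this threshold, so that the classes were not picked alike in both experiments. Cells with any UMI of *Gfra1* numbered 598, 916, 396 and 786 in the same order, and those with any UMI of *Kit* 38, 348, 121 and 385. Of other markers, *Etv5* was at 52.1 to 98.4 CPM (UMIs per 1000000 UMIs of the class) in Gfra1+ cells and 10.4 to 28.6 CPM in Sox3+ cells. *Stra8* was at 236 to 442 CPM in Kit+ cells and 54.0 to 83.0 CPM in Gfra1+ cells. The 6 progenitor markers, *Sox3* included, summed to 707, 269, 593 and 232 CPM in Sox3+ cells of CTRL 1, BU 1, CTRL 2 and BU 2. In Kit+ cells they summed to 581, 121, 237 and 121 CPM. The 4 differentiation markers, *Kit* included, summed to 607, 701, 350 and 490 CPM in Sox3+ cells. In Kit+ cells they summed to 1122, 970, 749 and 646 CPM.

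Several features of the libraries bear on the values that follow. The progenitor gene *Upp1* was at 179 and 239 CPM in Sox3+ cells of CTRL libraries and at 27.8 and 29.0 CPM in those of BU libraries, so that the Sox3+ class was not made up alike in both groups. Cells that were Kit+ as well made up 1.63% of Sox3+ cells in CTRL 1, 28.3% in BU 1, 3.10% in CTRL 2 and 32.6% in BU 2. CTRL 2 and BU 2 shared 677 cell barcodes, 36.4% of the smaller library, while the other pairs of libraries shared between 0 and 11. Kept cells with a barcode also found in another library were 20.1% of CTRL 2 and 41.4% of BU 2. Their median depth was 44463 and 55029 UMIs, against 29003 and 25279 UMIs in the remaining kept cells. Without them the summed UMIs of BU 2 fell from 52375136 to 18096181 in all kept cells, and from 8544351 to 1764881 in Kit+ cells. In CTRL 2 the summed level of 5 Leydig cell markers was 6346 CPM in Kit+ cells, against 1.8 to 4.1 CPM in the other 3 libraries, and 7 spermatid markers summed to 7755 CPM there against 333 to 787 CPM.

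The 10 genes are given with their places in the GENCODE annotation of GRCm38, the build of the reference used here. On chromosome 7 lie *Gpi1* (chr7:34201330-34230336, minus strand), *Ldha* (chr7:46841475-46855627, plus strand) and *Aldoa* (chr7:126795234-126800751, minus strand). Chromosome 10 carries *Hk1* (chr10:62268855-62379908, minus strand) and *Pfkl* (chr10:77986947-78010083, minus strand), and chromosome 6 carries *Hk2* (chr6:82725025-82774454, minus strand) and *Ldhb* (chr6:142490249-142507957, minus strand). *Pfkp* lies at chr13:6579768-6648777 on the minus strand, *Eno1* at chr4:150236721-150248879 on the plus strand and *Pkm* at chr9:59656368-59679375 on the plus strand. All 10 are annotated as protein coding. *Aldoa*, *Eno1*, *Pkm*, *Ldha* and others have near-identical processed copies in the genome, so that reads may be split or dropped, and the counts cannot tell the M1 and M2 forms of *Pkm* apart.

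The promoters of *Hk1*, *Hk2*, *Eno1* and *Ldha* are shown because edgeR called these 4 genes between BU and CTRL in Sox3+ cells with the experiment as a block. Without the block it called none of them, as given below. The pair of hexokinases differed in opposite directions. Each promoter shown is the 250 bases before a RefSeq transcript start (GRCm38.p6), read 5′ to 3′ along the gene. Capitals mark ACGTG, a form of the core of the hypoxia-response element, on either strand (written CACGT when it lies on the other). They also mark CACGTG, the E-box bound by MYC, which contains ACGTG. The windows are chr10:62379909-62380158 (minus strand) for *Hk1*, chr6:82774455-82774704 (minus strand) for *Hk2*, chr4:150236458-150236707 (plus strand) for *Eno1* and chr7:46845554-46845803 (plus strand) for *Ldha*, the last one 4329 bases inside the annotated gene start.
Hk1: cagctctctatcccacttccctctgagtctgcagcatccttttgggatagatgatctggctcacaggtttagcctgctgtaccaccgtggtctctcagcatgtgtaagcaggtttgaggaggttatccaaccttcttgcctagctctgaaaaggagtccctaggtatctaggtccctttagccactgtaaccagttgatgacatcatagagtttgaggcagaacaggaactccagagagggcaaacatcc
Hk2: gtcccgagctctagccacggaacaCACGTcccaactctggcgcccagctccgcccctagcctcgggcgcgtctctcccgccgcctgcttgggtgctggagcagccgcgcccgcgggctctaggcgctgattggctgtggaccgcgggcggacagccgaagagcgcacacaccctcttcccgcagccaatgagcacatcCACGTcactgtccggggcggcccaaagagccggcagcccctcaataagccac
Eno1: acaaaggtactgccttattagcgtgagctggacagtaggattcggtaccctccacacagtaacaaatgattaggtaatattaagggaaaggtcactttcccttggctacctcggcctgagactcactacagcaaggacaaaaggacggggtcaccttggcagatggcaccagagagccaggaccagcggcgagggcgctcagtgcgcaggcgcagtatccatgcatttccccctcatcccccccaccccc
Ldha: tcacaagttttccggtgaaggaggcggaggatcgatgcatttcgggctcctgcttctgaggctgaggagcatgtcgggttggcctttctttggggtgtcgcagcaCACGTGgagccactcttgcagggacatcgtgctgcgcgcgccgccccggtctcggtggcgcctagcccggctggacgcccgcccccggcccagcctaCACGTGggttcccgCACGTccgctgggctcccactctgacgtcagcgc

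The *Hk2* window held ACGTG at 2 places, 226 and 52 bases before the start. The *Ldha* window held it at 5 places, of which 2 pairs are the opposite strands of the E-boxes at 145 and 48 bases before the start. The *Hk1* and *Eno1* windows held neither ACGTG nor CACGTG. Other forms of the core, such as the GCGTG in the *Eno1* window, were not counted. Over the 17 RefSeq windows of all 10 genes, 5 windows belonging to 4 genes (*Hk2*, *Aldoa*, *Pkm* and *Ldha*) held ACGTG and 1 window, of *Ldha*, held CACGTG. Among all 32851 mouse promoter windows of this length, 16.6% held ACGTG and 6.02% held CACGTG. A match describes the letters of the window only, and no binding was measured.

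Levels were compared as UMIs summed over the cells of a class in each library and divided by the summed UMIs of all genes (CPM). In Gfra1+ cells *Gpi1* was measured at 564, 388, 476 and 456 CPM in CTRL 1, BU 1, CTRL 2 and BU 2, and *Pkm* at 827, 649, 424 and 420 CPM. *Pkm* therefore split by experiment before it split by treatment, with both libraries of experiment 1 above both of experiment 2. *Aldoa* stood at 370, 453, 287 and 463 CPM in the same order, higher in the BU library of each experiment. *Pfkl*, the liver-type phosphofructokinase, was the sparsest, at 2.1 to 6.8 CPM in Gfra1+ cells, 2.1 to 2.6 CPM in Sox3+ cells and 2.4 to 8.0 CPM in Kit+ cells, where CTRL 1 held only 2 UMIs of it. The platelet-type gene *Pfkp* was at 18.4 to 26.4 CPM in Gfra1+ cells, 13.2 to 20.9 CPM in Sox3+ cells and 8.9 to 21.2 CPM in Kit+ cells, and its ranges overlapped between neighbouring classes.

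**Figure D1:**
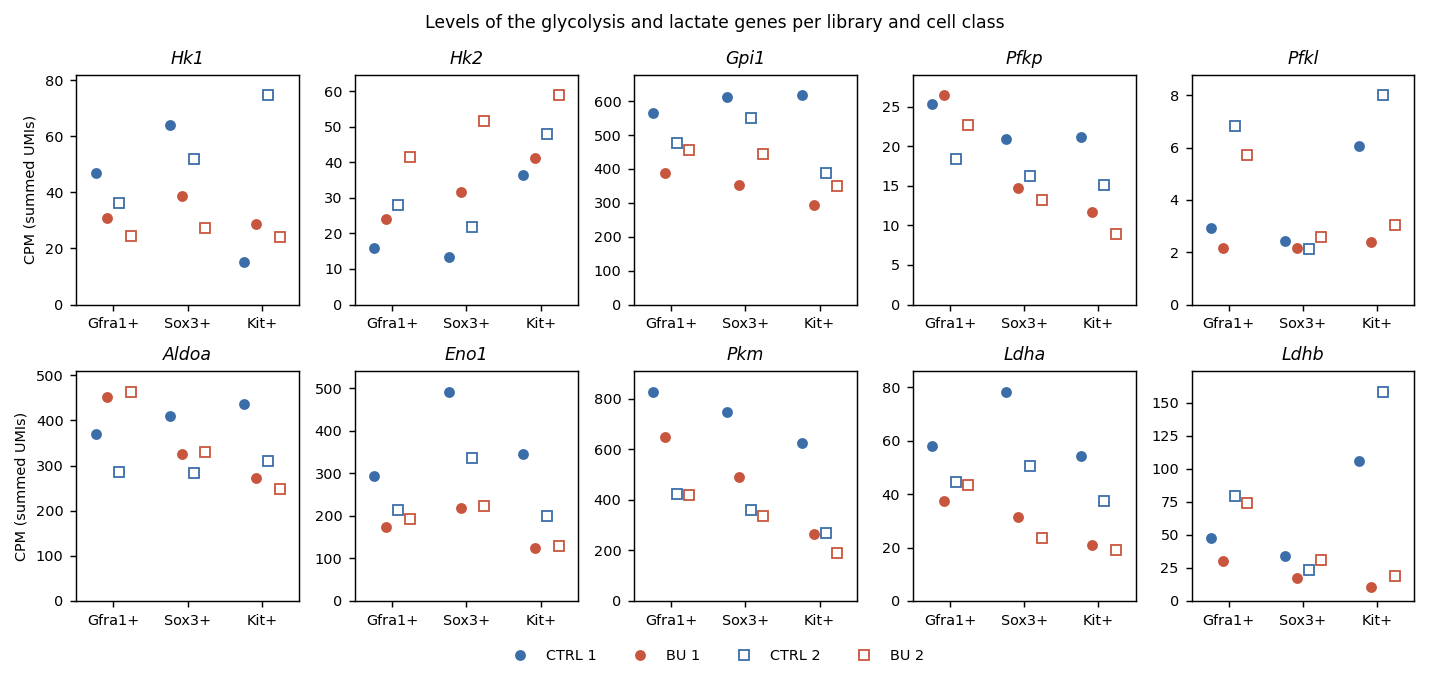
Level of each gene in CPM (y axis, from 0, a separate scale for each gene) in Gfra1+, Sox3+ and Kit+ cells (x axis) of each library, with circles for experiment 1, squares for experiment 2, blue for CTRL and red for BU. *Eno1* reached 492 and 336 CPM in CTRL Sox3+ cells and 219 and 223 CPM in BU ones, and *Hk2* was higher in the BU library of each experiment in all 3 classes.

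The comparison of BU with CTRL asked how the genes differed in the cells that survived the drug. In Sox3+ cells the first enzyme of the pathway differed in opposite directions for its 2 genes. *Hk2*, the inducible hexokinase, was measured at 13.3 CPM in CTRL 1 against 31.7 CPM in BU 1, and at 21.8 CPM in CTRL 2 against 51.6 CPM in BU 2. *Hk1*, the widely expressed hexokinase, was at 64.1 and 52.0 CPM in the CTRL libraries and at 38.6 and 27.5 CPM in the BU libraries. For both genes the direction was the same within each experiment, with 1 library a group in each.

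Near the end of the pathway *Eno1* and *Ldha* were lower in Sox3+ cells after BU. *Eno1* was at 492 and 336 CPM in CTRL 1 and CTRL 2 against 219 and 223 CPM in BU 1 and BU 2. *Ldha* was at 78.3 and 50.7 CPM in CTRL against 31.3 and 23.6 CPM in BU. For these genes too the direction was the same within each experiment.

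Condition alone, with 2 libraries a group, called none of these differences. Without a term for the experiment, edgeR's quasi-likelihood test called 0 of the 10 genes in Sox3+ cells at an adjusted p of 0.05, as it called 0% of all 14443 genes tested. An unadjusted p below 0.05 was found for 4 of the 10, against 2027 of all genes tested. DESeq2 called 1 of the 10, *Ldha*, against 327 of all genes. The libraries of an experiment shared a kit and a sequencing lane and deviated together. With the experiment as a block, edgeR called 4 of the 10 genes in Sox3+ cells, 1 higher and 3 lower in BU, against 5.67% of all genes tested (2.57% higher and 3.1% lower). *Hk2* rose by 1.21 on the log2 scale (SE 0.20, edgeR adjusted p = 0.0343), whereas *Ldha* (log2 fold change -1.25, SE 0.19, adjusted p = 0.0307), *Eno1* (-0.92, SE 0.18, adjusted p = 0.0427) and *Hk1* (-0.87, SE 0.18, adjusted p = 0.04999) fell. *Gpi1* had a log2 fold change of -0.59 (SE 0.16) and an edgeR adjusted p of 0.0768, with 611 and 552 CPM in CTRL and 353 and 445 CPM in BU. The other 5 genes were not called. *Pkm* was at 746, 492, 358 and 338 CPM in CTRL 1, BU 1, CTRL 2 and BU 2, *Aldoa* at 409, 326, 283 and 330 CPM, and *Ldhb* at 34.1, 17.2, 23.3 and 31.0 CPM, and *Pfkp* and *Pfkl* were in the ranges given above. The median over the 10 genes was -0.41, against 0.03 over all genes.

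These 4 differences in Sox3+ cells went with differences in which cells the class held. The 7 mitotic markers summed to 487 and 642 CPM in Sox3+ cells of CTRL libraries and to 1188 and 1319 CPM in those of BU libraries, and the Kit+ share differed as given above. When only cells above the threshold for *Sox3* and for neither *Gfra1* nor *Kit* were kept, the blocked log2 fold changes were 1.06 for *Hk2*, -0.91 for *Ldha*, -0.74 for *Hk1* and -0.54 for *Eno1*, and 0 of the 10 genes were called. Without cells holding mitotic UMIs, which left 304, 24, 85 and 24 cells in CTRL 1, BU 1, CTRL 2 and BU 2, they were 0.77, -0.77, -0.18 and -0.39, again with 0 calls, and without cells with shared barcodes they were 1.13, -0.96, -0.90 and -0.79, with 0 calls. The part of class makeup in the differences was not tested further.

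In Gfra1+ cells edgeR called 0 of the 10 genes with or without the block, against 0.066% and 0% of the 13630 genes tested. DESeq2 also called 0, against 57 and 15 of all genes. Without the block 0 of the 10 genes had an unadjusted p below 0.05, against 582 of all genes tested. With it 1601 of all genes tested had, and 2 of the 10 genes. These were *Hk2*, at 15.9 and 27.9 CPM in CTRL and 24.1 and 41.5 CPM in BU (log2 fold change 0.68, SE 0.24, edgeR adjusted p = 0.304), and *Aldoa* (0.59, SE 0.21, adjusted p = 0.315). *Hk1* stood at 47.0 and 36.2 CPM in CTRL and 30.7 and 24.6 CPM in BU, and *Eno1* at 294 and 214 CPM in CTRL and 174 and 192 CPM in BU. *Ldha* was at 58.1 and 44.6 CPM in CTRL and 37.6 and 43.3 CPM in BU, and *Ldhb* at 47.8 and 79.5 CPM against 30.0 and 73.8 CPM. The 95% intervals of the blocked log2 fold change in Gfra1+ cells were -1.001 to 0.02 for *Hk1*, -0.87 to 0.15 for *Eno1* and -0.79 to 0.32 for *Ldha*. The fall measured in Sox3+ cells lay within this interval for *Hk1* and beyond it for *Eno1* and *Ldha*. The change in Sox3+ cells was then set directly against that in Gfra1+ cells, in cells of exactly 1 class and not in the full classes above. There edgeR called 0 of the 9 genes tested, against 0.0246% of all genes, and DESeq2 called 0, against 5 of all genes. An unadjusted p was below 0.05 for 3 genes (*Aldoa*, *Eno1* and *Ldha*), against 816 of the 12213 genes tested.

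**Figure D2:**
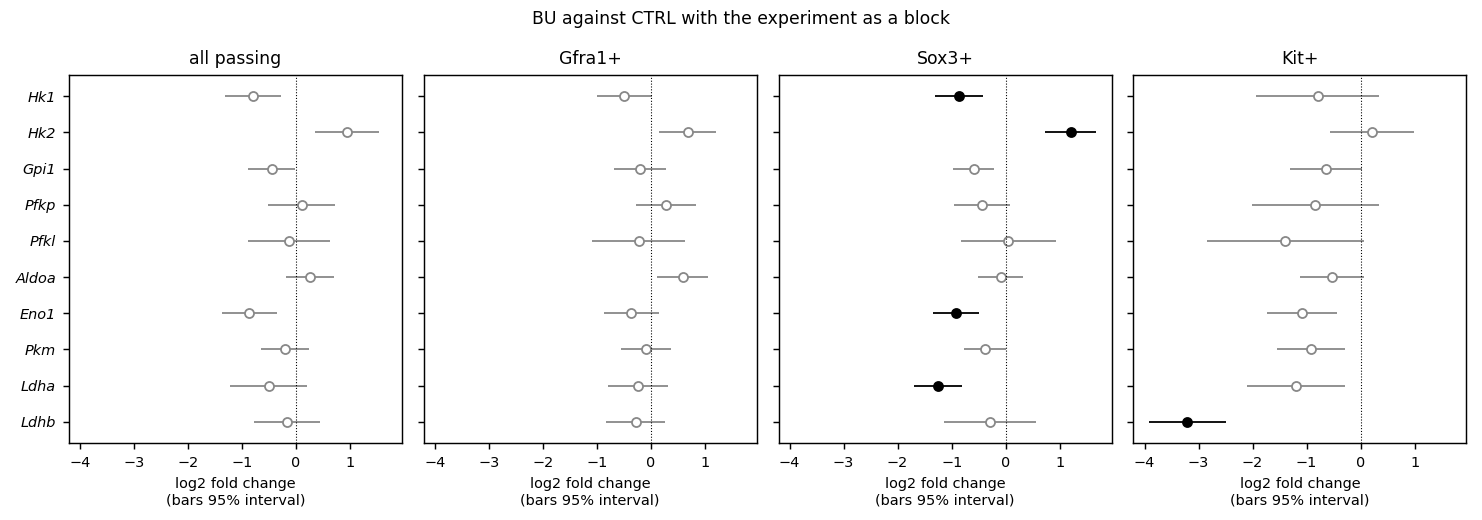
Log2 fold change of BU against CTRL (x axis) for each gene (y axis) in all kept cells and in each class, from the edgeR fit with the experiment as a block, with bars for the 95% interval and filled points for an adjusted p below 0.05. Filled points stand at *Hk1*, *Hk2*, *Eno1* and *Ldha* in Sox3+ cells and at *Ldhb* in Kit+ cells.

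In Kit+ cells *Ldhb*, which encodes the subunit of lactate dehydrogenase common in oxidative tissues, was lower after BU. It was measured at 106 CPM in CTRL 1 against 10.8 CPM in BU 1, and at 158 CPM in CTRL 2 against 18.6 CPM in BU 2. With the block, edgeR called *Ldhb* alone among the 10 genes (log2 fold change -3.21, SE 0.33, adjusted p = 0.00116), against 0.952% of the 11028 genes tested and 0.843% called lower. Without the block it called 0 of the 10, as it called 0% of all genes, with 4 at an unadjusted p below 0.05 and 1 called by DESeq2, *Ldhb*. Over all genes tested 909 had an unadjusted p below 0.05 in this fit, and DESeq2 called 46.

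The *Ldhb* counts in CTRL Kit+ cells were few and unevenly spread. They were 35 UMIs in 36 cells of CTRL 1 and 178 UMIs in 37 cells of CTRL 2, where 1 cell held 119 of them (66.9%). Leaving out the 6 CTRL 2 cells above the limits set on spermatid or somatic markers brought *Ldhb* there from 158 to 21.7 CPM, beside 18.6 CPM in BU 2. The blocked log2 fold change then was -1.77 and was not called. In CTRL 1, where the Leydig markers were at 3.0 CPM, these limits removed none of the 36 Kit+ cells. *Ldhb* at 106 CPM there was thus not put to this check, and its 35 UMIs lay in 13 cells.

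Among the other genes in Kit+ cells, *Eno1* was at 345 and 199 CPM in CTRL and 125 and 128 CPM in BU (blocked log2 fold change -1.08, SE 0.30, edgeR adjusted p = 0.119). *Hk2* was at 36.3 and 48.0 CPM in CTRL and 41.3 and 58.8 CPM in BU, with a blocked log2 fold change of 0.21 (SE 0.36, edgeR adjusted p = 0.889). *Pkm* was at 623 and 267 CPM in CTRL and 263 and 189 CPM in BU, and *Gpi1* at 617 and 389 CPM against 294 and 351 CPM. The median over the 10 genes was -0.88, against 0.01 over all genes tested, and 9 of the 10 fold changes were negative. Both CTRL libraries were above both BU libraries for each of the 10 genes but *Hk1* and *Hk2*. For *Hk1* and *Hk2*, CTRL 1 was below both BU libraries. The other CTRL library was above both for *Hk1* and between them for *Hk2*. The Kit+ class too was not made up alike in both groups. Its 7 mitotic markers summed to 351 and 734 CPM in CTRL libraries and to 1347 and 1565 CPM in BU libraries. Cells that were Sox3+ as well made up 66.7% of Kit+ cells in CTRL 1, 41.6% in BU 1, 54.1% in CTRL 2 and 55.1% in BU 2. How far makeup bears on these fold changes was not tested further.

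Over all kept cells edgeR called 0 of the 10 genes with or without the block, against 1.45% and 0% of the 17351 genes tested. Unadjusted p was below 0.05 for 4 of them with the block and for 1 without it, and DESeq2 called 1 (*Eno1*) and 0. Over all genes tested the counts, in the same order, were 3326 and 923 by unadjusted p and 716 and 115 by DESeq2. *Eno1* stood at 431 and 297 CPM in CTRL and 184 and 202 CPM in BU (blocked log2 fold change -0.86, SE 0.22, edgeR adjusted p = 0.105). *Hk1* had a blocked log2 fold change of -0.79 (SE 0.22, edgeR adjusted p = 0.119) and *Hk2* of 0.95 (SE 0.25, adjusted p = 0.113). In these sums a change in the number of cells of a class and a change in their RNA cannot be told apart, since Gfra1+ cells were 18.9% and 19.1% of kept cells in CTRL and 43.1% and 41.8% in BU.

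The mix of the 2 hexokinase genes was then described as the share of *Hk2* in their summed UMIs. It was 14.4% (95% exact interval 13.1 to 15.8) and 18.0% (16.9 to 19.1) in all cells of CTRL 1 and CTRL 2, whereas it was 40.4% (37.9 to 43.0) in BU 1 and 37.9% (36.6 to 39.2) in BU 2. In Sox3+ cells it was 17.2% and 29.5% in CTRL and 45.1% and 65.3% in BU, and in Gfra1+ cells 25.3% and 43.5% in CTRL and 43.9% and 62.8% in BU. The share was higher in the BU library of each experiment in these sets, by a mean of 23.0, 31.8 and 18.9 percentage points, although in Gfra1+ cells CTRL 2 and BU 1 lay side by side. In Kit+ cells it was 70.6% in CTRL 1, from 17 UMIs (44.0 to 89.7), 59.0% in BU 1, 39.1% in CTRL 2 and 70.9% in BU 2, so that the experiments differed in direction. With 2 libraries against 2 the two-sided exact permutation test cannot give a p below 0.33, which was the value for the share in all cells (0.566 after Benjamini-Hochberg adjustment over 12 such shares). All kept cells include cells of none of the classes. In experiment 2 the share over all kept cells lay below that of each class, in CTRL and BU alike. The 7 spermatid markers summed to 2815, 1008, 17058 and 8723 CPM in all kept cells of CTRL 1, BU 1, CTRL 2 and BU 2. The study left spermatids and somatic cells out of its analysis, whereas they were kept in these shares.

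Of the summed UMIs of *Ldha* and *Ldhb*, *Ldhb* made up 45.1% and 64.1% in Gfra1+ cells of CTRL 1 and CTRL 2, beside 44.4% in BU 1 and 63.1% in BU 2. This mix differed between the experiments far more than between the groups within each experiment. In Sox3+ cells the share was 30.3% and 31.5% in CTRL and 35.5% and 56.8% in BU. In Kit+ cells it was 66.0% and 80.9% in CTRL and 34.0% and 49.5% in BU, and the CTRL 2 value rests in part on the single cell described above. The germline gene *Ldhc* is left out of these shares. In Kit+ cells it was at 33.3 and 146 CPM in CTRL 1 and CTRL 2 and at 72.1 and 56.3 CPM in BU 1 and BU 2. Of the summed UMIs of *Pfkp* and *Pfkl*, *Pfkp* made up 79.6% to 90.3% in all kept cells, and the groups overlapped. This share leaves out *Pfkm*, which was at 5.4 to 12.1 CPM in Kit+ cells. Intervals cover counting error only, and capture can differ between the genes of a pair, so that a share of UMIs is not the share of enzyme.

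**Figure D3:**
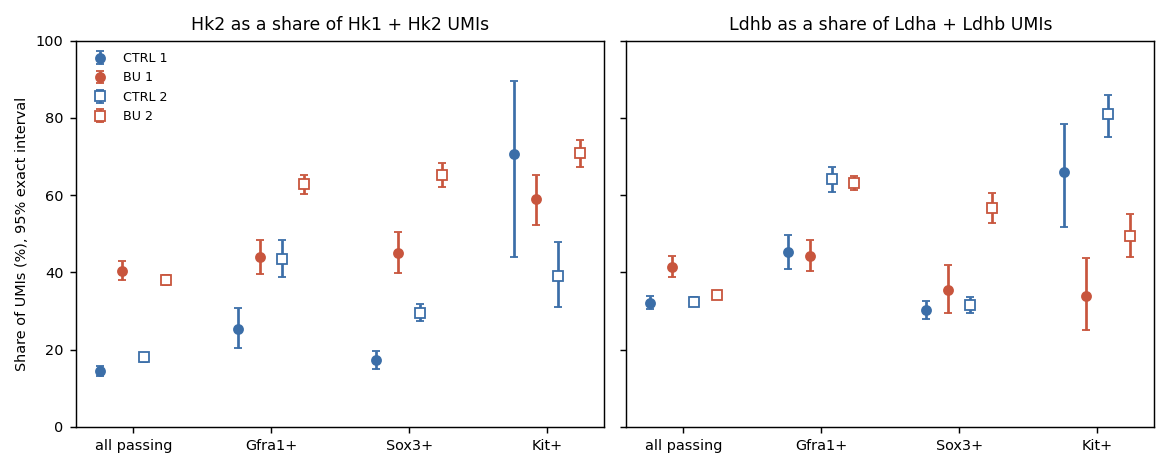
Share of UMIs in percent (y axis, 0 to 100) of *Hk2* among *Hk1* and *Hk2* (left) and of *Ldhb* among *Ldha* and *Ldhb* (right) in each library and set of cells (x axis), with 95% exact binomial intervals. In all kept cells the *Hk2* share was 14.4% and 18.0% in CTRL and 40.4% and 37.9% in BU.

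Summed over the 10 genes, cells thinned to 5000 UMIs held a median of 12 UMIs in Sox3+ cells of CTRL 1, 7 in BU 1, 8 in CTRL 2 and 7 in BU 2. In Gfra1+ cells the medians were 11, 9, 7 and 8, and in Kit+ cells 9.5, 5, 7 and 5, in the same order. The sum was lower in BU than in CTRL of the same experiment in Sox3+ and Kit+ cells, and the experiments differed in direction in Gfra1+ cells. In Sox3+ cells of exactly 1 class the summed level was 2485 and 1676 CPM in CTRL 1 and BU 1 but 1727 and 1847 CPM in CTRL 2 and BU 2, so that the direction turned in experiment 2. *Gpi1*, *Aldoa*, *Eno1* and *Pkm* carried most of these UMIs, so that the sum says little of the hexokinases.

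**Figure D4:**
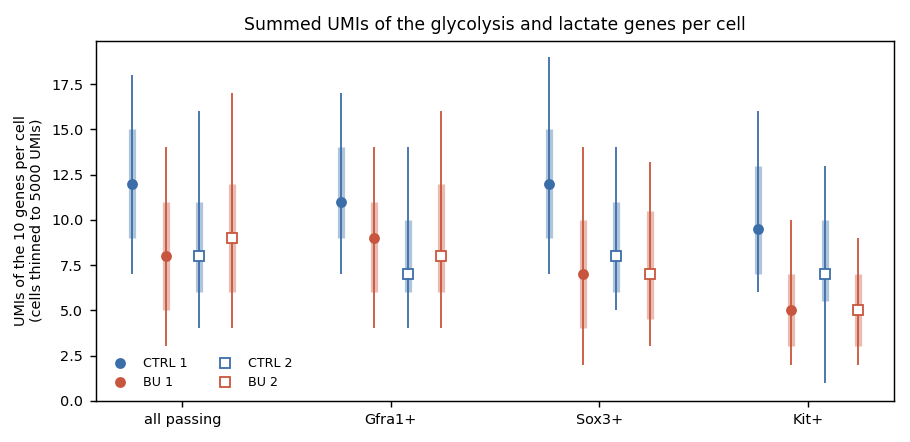
UMIs of the 10 genes together per cell after thinning each cell to 5000 UMIs (y axis) in each library and set of cells (x axis), with points for the median, thick bars for the quartiles and thin bars for the 10th to 90th percentile of cells. Sox3+ cells had a median of 12 UMIs in CTRL 1 against 7 in BU 1, and of 8 in CTRL 2 against 7 in BU 2.

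The classes were compared with each other in cells above the threshold for exactly 1 of the 3 marker genes, with the library as a block and *Gfra1*, *Sox3* and *Kit* left out of the genes tested. *Pfkl* was too sparse and 9 of the 10 genes were tested. Between Gfra1+ and Sox3+ cells, *Eno1* was the gene that differed. It was measured at 238, 166, 182 and 195 CPM in Gfra1+ cells of CTRL 1, BU 1, CTRL 2 and BU 2, and at 503, 268, 350 and 316 CPM in Sox3+ cells. It was higher in Sox3+ cells of all 4 libraries, by 0.90 on the log2 scale (SE 0.15, edgeR adjusted p = 0.00282), and 1 of 9 genes was called, against 13.6% of the 12213 genes tested and 6.43% called higher. The call for *Eno1* was lost when the library block was left out and when any UMI of the marker gene defined the class.

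In the fit of all libraries, Kit+ cells held less *Pkm* and *Gpi1* than both other classes, though not in each library. They also held less *Eno1* than Sox3+ cells. *Pkm* was at 946, 229, 244 and 163 CPM in the Kit+ cells of CTRL 1, BU 1, CTRL 2 and BU 2, against 823, 642, 418 and 429 CPM in Gfra1+ cells and 738, 546, 352 and 437 CPM in Sox3+ cells. CTRL 1, with 10 such Kit+ cells, ran against the other 3 libraries. *Gpi1* was at 590, 285, 274 and 344 CPM in Kit+ cells, 576, 393, 470 and 469 CPM in Gfra1+ cells and 620, 373, 564 and 530 CPM in Sox3+ cells. In CTRL 1 it was thus not lower in Kit+ than in Gfra1+ cells. *Eno1* was at 301, 125, 178 and 117 CPM in Kit+ cells, below Sox3+ cells in each library.

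Against Gfra1+ cells edgeR called 2 of 9 genes in Kit+ cells, both lower, beside 23.4% of all genes tested and 13.4% called lower. The log2 fold change was -0.94 for *Pkm* (SE 0.25, adjusted p = 0.0219) and -0.48 for *Gpi1* (SE 0.14, adjusted p = 0.0254). Against Sox3+ cells edgeR called 3 of 9, all lower, beside 14.7% of all genes and 8.97% called lower. These were *Eno1* (-1.23, SE 0.17, adjusted p = 0.00304), *Gpi1* (-0.66, SE 0.14, adjusted p = 0.0133) and *Pkm* (-0.84, SE 0.25, adjusted p = 0.0475). By these calls the order was Sox3+ above Gfra1+ and Kit+ for *Eno1*, with the latter pair not called apart. It was Gfra1+ and Sox3+ above Kit+ for *Gpi1* and *Pkm*, with the former pair not called apart. In CTRL 1 neither *Gpi1* nor *Pkm* was lower in Kit+ than in Gfra1+ cells. The remaining 6 genes were not called between any classes.

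The number of genes called depended on which libraries and cells were kept. A library was left out with all of its classes, so that these refits cannot tell the classes apart as the source. Without CTRL 2, in which 15 Kit+ cells held Leydig markers at 17632 CPM, edgeR called 7 of 9 genes lower in Kit+ than in Gfra1+ cells and 7 of 9 lower than in Sox3+ cells, *Aldoa*, *Ldha* and *Ldhb* among them in both. Leaving out cells with spermatid or somatic markers instead gave 6 and 7 calls, all lower. Without BU 1 the calls were 0 and 1, and without BU 2 they were 0 and 0. The share of all genes called in each of these refits is not given here. The counts therefore cannot show that these genes differed more than others. Scaling by library size in place of TMM moved the median log2 fold change of all genes by 0.125 between Kit+ and Sox3+ cells, by 0.122 in the test of the BU change in Kit+ cells and by 0.140 in that in Sox3+ cells, and *Gpi1* in Kit+ against Gfra1+ cells and *Pkm* in Kit+ against Sox3+ cells were then not called.

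**Figure D5:**
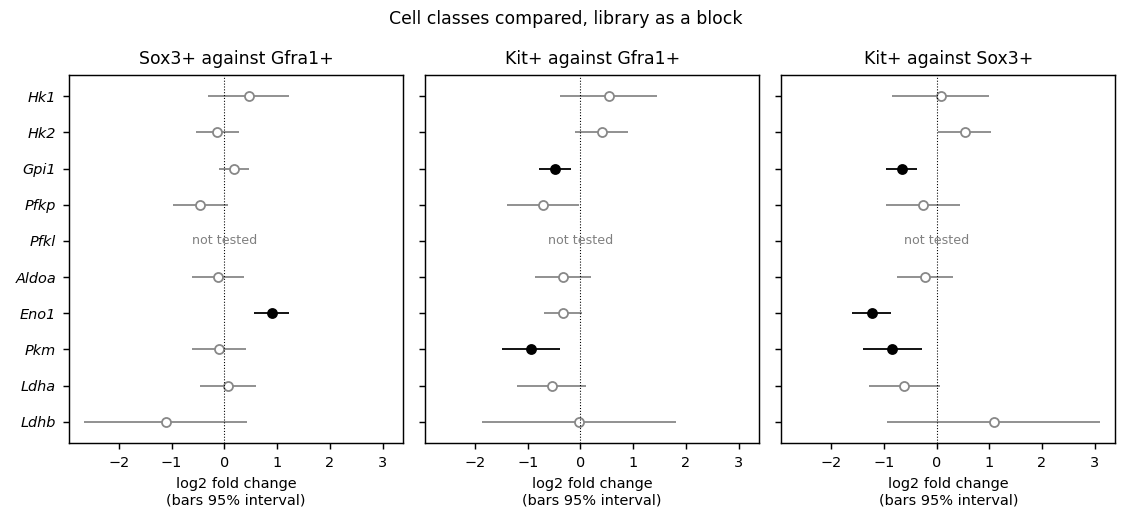
Log2 fold change between classes (x axis) for each gene (y axis) in cells of exactly 1 class, from the edgeR fit with the library as a block, with bars for the 95% interval and filled points for an adjusted p below 0.05. *Eno1* stands at 0.90 for Sox3+ against Gfra1+ and at -1.23 for Kit+ against Sox3+ cells.

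The change with BU in Kit+ cells was also set against that in Gfra1+ cells, on both sides in cells of exactly 1 class. It was more negative for 4 of 9 genes, *Ldhb*, *Hk1*, *Aldoa* and *Pkm*, beside 3.65% of all genes called and 2.88% called lower. In these Kit+ cells *Aldoa* was at 467 and 412 CPM in CTRL and 239 and 275 CPM in BU. In all Gfra1+ cells, a wider set than the one tested, it was at 370 and 287 CPM in CTRL and 453 and 463 CPM in BU. The difference between the changes was -1.42 for *Aldoa* on the log2 scale (SE 0.22, edgeR adjusted p = 0.00824) and -1.25 for *Pkm* (SE 0.25, adjusted p = 0.0225). It was -4.63 for *Ldhb* (SE 0.67, edgeR adjusted p = 0.00746) and -1.98 for *Hk1* (SE 0.50, adjusted p = 0.04996). Without the cells bearing spermatid or somatic markers, 1 call was left, *Pkm* at -1.15, and *Aldoa*, *Hk1* and *Ldhb* were at -0.62, -0.17 and -2.03. Without CTRL 2 *Pkm* (-1.61) and *Ldhb* (-3.60) were called, *Aldoa* was at -1.23 and *Hk1* at 1.00, and without BU 1 or BU 2 the count was 0, each of these fits holding 1 library in an arm.

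The rest of the pathway was taken from lists of genes. Of the 15 other glycolytic genes, 10 were tested for BU against CTRL in Sox3+ cells and 0 were called with the block by edgeR. Of 10 tested genes of glucose, lactate and pyruvate transport, 1 was called, *Mpc2*, a subunit of the carrier that brings pyruvate into mitochondria, at 889 and 938 CPM in CTRL and 627 and 677 CPM in BU (log2 fold change -0.53, SE 0.11, edgeR adjusted p = 0.0497). The lists of 7 germline copies of glycolytic genes, 17 tested regulators, 7 pentose phosphate genes and 13 genes of the tricarboxylic acid cycle gave 0 calls in Sox3+ cells. Median log2 fold changes there were -0.09 for the other glycolytic genes, -0.40 for the germline copies and -0.36 for the pentose phosphate genes, beside 0.03 over all genes.

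In Kit+ cells with the block, 1 of 7 pentose phosphate genes was called, transketolase (*Tkt*), at 60.5 and 103 CPM in CTRL and 21.5 and 14.4 CPM in BU (log2 fold change -2.30, SE 0.41, edgeR adjusted p = 0.0255). *Gapdhs*, the sperm-specific glyceraldehyde-3-phosphate dehydrogenase, was called in Kit+ cells (-2.73, SE 0.58, edgeR adjusted p = 0.0468) and over all cells (-1.20, SE 0.21, adjusted p = 0.0493). Over all cells, in the fit without the block, its log2 fold change ranged from -2.70 without BU 2 to 0.19 without CTRL 2. Its level in Kit+ cells was 251 CPM in CTRL 2 and 15.0 to 21.2 CPM in the other libraries, and moved with the spermatid markers given above. The 4 other lists in Kit+ cells, and all 6 lists in Gfra1+ cells, gave 0 calls with the block. The calls of *Mpc2*, *Tkt* and *Gapdhs* were lost without the block. In the test of the BU change in Kit+ against Gfra1+ cells, *Gapdhs* (-3.10), *Pgk2* (-3.13), *Tpi1* (-3.14), *Tkt* (-3.50) and *Suclg1* (-1.21) were called, and in Kit+ cells of CTRL 2 the first 4 stood at 679, 195, 195 and 215 CPM, each above the other 3 libraries. Beside these, 1 of 15 regulators was called, *Pfkfb3*, which was below the level set for naming genes and is named after its values were seen, and 0 of 10 transport genes.

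Between the classes, the counts of each list stand beside the 13.4% of all genes that were lower in Kit+ than in Gfra1+ cells, and no list was tested as a whole. Of 10 tested transport genes 1 was higher and 4 were lower. The glucose transporter gene *Slc2a1* was at 30.0 to 40.8 CPM in Gfra1+ cells and at 0 to 15.5 CPM in Kit+ cells (log2 fold change -1.55, SE 0.26, edgeR adjusted p = 0.00254), where the 0 in CTRL 1 comes from 10 cells. *Emb*, a partner protein of lactate transporters (-1.17), and *Mpc1*, the other pyruvate carrier subunit (-0.60), were lower as well. Of 15 regulators 1 was higher and 5 were lower in Kit+ cells, led by pyruvate dehydrogenase kinase 1 (*Pdk1*, -1.74, SE 0.28, edgeR adjusted p = 0.0019), which switches off the enzyme complex that feeds pyruvate to mitochondria, and by 2 subunit genes of that complex, *Dlat* (-1.12) and *Pdha1* (-1.11). Over the 15 regulators 8 fold changes were positive and the median was 0.0014. *Pdha1* was at 0.11 without mitotic cells. That refit held only 3, 2, 4 and 2 Kit+ cells of CTRL 1, BU 1, CTRL 2 and BU 2, too few to decide. Named after their values were seen, the other calls were *Hif1a* and *Tigar* (lower) and *Vhl* (higher) among the regulators, and *Slc2a3* (lower) and *Slc16a1* (higher) among the transport genes.

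Of 9 other glycolytic genes 1 was higher in Kit+ than in Gfra1+ cells, *Bpgm* (0.80), which diverts a glycolytic intermediate to 2,3-bisphosphoglycerate, and 2 were lower, *Gapdh* (-0.46) and *Aldoc* (-0.46). Of 13 tricarboxylic acid cycle genes 3 were lower, *Dlst* (-1.16), *Idh3b* (-0.78) and *Mdh2* (-0.54). Against Sox3+ cells, Kit+ cells were again lower in *Slc2a1* (-1.93), *Pdk1* (-1.55), *Dlat* (-0.97) and *Mdh2* (-0.60), and also in *Mpc2* (-0.92) and in *Mycn* (-0.88), a MYC family gene. They were higher in *Pgk1* (1.02), *Bpgm* (0.84), the lactate transporter partner *Bsg* (0.55) and *Ogdh* (0.51). Each of these passed an edgeR adjusted p of 0.05 over all 12213 genes tested. *Pgk1* was near the floor in experiment 1, where Kit+ cells held 1 UMI of it in CTRL 1 and 4 in BU 1. CTRL 2 and BU 2 held 28 and 108.

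Sox3+ cells differed from Gfra1+ cells in fewer genes of these lists. *Mycn* was at 15.7 to 17.8 CPM in Gfra1+ and 31.1 to 52.6 CPM in Sox3+ cells (log2 fold change 1.50, SE 0.18, edgeR adjusted p = 0.000477), and was the 1 regulator of 15 called. *Mpc1* was the 1 transport gene called, at 119 to 130 CPM in Gfra1+ cells and 61.4 to 81.9 CPM in Sox3+ cells (-0.67, SE 0.12, edgeR adjusted p = 0.00389). The pentose phosphate genes *Pgd* (0.53) and *Pgls* (0.51) were higher and *Idh3b* of the tricarboxylic acid cycle (-0.54) was lower in Sox3+ cells. The other glycolytic genes and the germline copies gave 0 calls of 9 and 6 tested, and germline copies gave 0 calls between the other classes too.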

How the data were processed

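Single-cell RNA-seq matrices of UMI counts, deposited by the authors as filtered Cell Ranger 3.0.2 output, were available for 4 libraries (2 CTRL, 2 BU). The labels name kit V2 for experiment 1 and V3.1 for experiment 2, and the study's methods name one kit for all. The labels give GRCm39 and the methods mm10, so coordinates here are those of the reference annotation (GRCm38), not of the files. The 2 experiments list 27998 and 31053 genes, and the 27514 in common were used; for *Aldoa* only ENSMUSG00000030695 was used.

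A cell was kept if it had over 1000 genes and if mitochondrial genes gave under 20% of its UMIs. UMIs were summed per library and class, since cells are not replicates, and tested with edgeR 4.0.16 (R 4.3.3; filterByExpr, TMM, quasi-likelihood F-test, Benjamini-Hochberg over all genes, threshold 0.05; SE as the log2 fold change over the root of F, 95% intervals from the t distribution with edgeR's total degrees of freedom). CPM are plain shares of summed UMIs. BU against CTRL had condition as its only term, as in the study; the fit with the experiment as a block was an alternative. The labels tie each number to a shared kit and lane, and deviations of same-numbered libraries from their group means correlated at r = 0.779, 0.664, 0.615 and 0.490 in all, Gfra1+, Sox3+ and Kit+ cells (with 2 libraries a group this r is the same for both numbers), so the numbers were taken as pairing the libraries. Separate pools of mice were used in each experiment. Class comparisons used 12 sums with the library as a block, and the interaction of class and condition. Alternatives were DESeq2 1.42.0, other size factors, no low-count filter, other cell filters, thinning, and each library left out. Doublets were scored with Scrublet in scanpy 1.11.5, which marked 152 cells (2.03%) at the rate expected for the loading, against 15 (0.2%) at its own threshold; they were left out only as an alternative. Spermatid and somatic limits were 1% and 0.1% of a cell's UMIs. Scripts were tested on simulated data. In these, genes to be changed were drawn only above a floor of mean level, and all genes were given a common spread. The simulated counts therefore do not cover sparse genes such as *Pfkl*, or genes with most UMIs in a single cell. Without the block 0 of 100 genes changed 2-fold and 0 of 100 changed 4-fold were called in each class. With the block 45, 57 and 10 of 100 genes changed 2-fold were called in Gfra1+, Sox3+ and Kit+ cells, and 99, 100 and 86 changed 4-fold. The test of the BU change in Kit+ cells called 23 and 80 of 100. A count of 0 calls therefore does not show that a gene did not change. Genes left unchanged in the simulations were called as well. There were 8, 4 and 3 such false calls in the blocked fits of Gfra1+, Sox3+ and Kit+ cells. The test of the BU change in Kit+ cells gave 13. The rule for named genes took all 10 genes, of which the plots show every fold change and the text prints some, and from each further list the count and up to 3 called genes with the largest fold change and a mean of at least 10 CPM. Members and lists were chosen with earlier results of these data known.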

Additional observations from a re-analysis of the deposited data

Results flagged for a closer look

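The change with BU differed between Kit+ and Gfra1+ cells for 4 genes by the edgeR interaction test of that difference, in cells of exactly 1 class. On the log2 scale the difference was -1.98 for *Hk1*, -1.42 for *Aldoa*, -1.25 for *Pkm* and -4.63 for *Ldhb*, each more negative in Kit+ cells. The Kit+ side of CTRL rests on 10 cells in CTRL 1 and 15 in CTRL 2. In Kit+ cells of CTRL 2, *Hk1* was at 178 CPM and *Ldhb* at 395 CPM, and in those of CTRL 1 at 22.3 and 100.2 CPM, while BU 1 and BU 2 held 32.2 and 20.2 CPM of *Hk1* and 7.9 and 11.3 CPM of *Ldhb*. The Leydig markers summed to 17632 CPM in these CTRL 2 cells, to 0 in CTRL 1 and to 1.3 and 4.2 CPM in BU 1 and BU 2. *Pkm* was at 946 and 244 CPM in Kit+ cells of CTRL 1 and CTRL 2, the former from 85 UMIs. In BU 1 and BU 2 it was at 229 and 163 CPM. Without the cells bearing spermatid or somatic markers, *Pkm* was still called. It was not called without the library block, with any UMI of the class gene, without mitotic cells or without shared barcodes.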

How the results depend on the processing

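The fit without a block gave 0 calls for BU against CTRL. The replicate block, whose pairing comes from the labels, gave 4 called genes in Sox3+ cells, 1 in Kit+ cells and 0 in Gfra1+ and all cells, and the calls of *Mpc2* in Sox3+ cells, *Tkt* in Kit+ cells and *Gapdhs* in Kit+ and all cells were lost in the fit of all libraries without it. A fit of BU against CTRL without 1 library leaves 1 arm with 1 library, assumed to vary like the other. In Sox3+ cells the blocked count was 4 with DESeq2, RLE size factors or any UMI of the class gene, 3 with library size only, with other cell types left out, at 5000 UMIs or under 10% mitochondrial UMIs, 5 without doublets or without a low-count filter, and 0 in cells of 1 class only, without mitotic cells or without shared barcodes; DESeq2 without the block gave 1, and leaving out a library gave 0 to 3. In Kit+ cells the blocked count was 1 with DESeq2, library size only, no low-count filter or cells of 1 class only, 2 with RLE size factors, any UMI of the class gene or thinning, 3 without doublets or under 10% mitochondrial UMIs and 4 without shared barcodes; DESeq2 and no low-count filter gave 1 without the block, and leaving out a library gave 0 to 3. In all cells, with the block, RLE size factors gave 2 calls, and DESeq2 or no low-count filter gave 1. The share of all genes called in each refit is not given beside these counts or those below.

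Without the library block (no replicate block) every class comparison and the test of the BU change in Kit+ cells gave 0 calls. Without mitotic cells, only 3, 2, 4 and 2 Kit+ cells of exactly 1 class were left in CTRL 1, BU 1, CTRL 2 and BU 2. Those Kit+ refits hold too few cells to decide. For Sox3+ against Gfra1+ cells the count was 0 with any UMI of the class gene, 2 without mitotic cells, without shared barcodes, without a low-count filter or thinned, 3 with other cell types left out, and 1 to 4 with a library left out. For Kit+ against Gfra1+ cells it was 0 with any UMI or without mitotic cells, 1 without shared barcodes or with library size only, 4 without a low-count filter, 5 with cells of 2 classes kept, 6 with other cell types left out and 0 to 7 with a library left out. For Kit+ against Sox3+ cells it was 0 with any UMI, 1 without mitotic cells or shared barcodes, 7 with other cell types left out and 0 to 7 with a library left out. For the BU change in Kit+ cells it was 0 with any UMI, without mitotic cells or without shared barcodes, 1 with other cell types left out or thinned and 0 to 7 with a library left out; for that in Sox3+ cells it was 1 with other cell types left out and 0 to 1 with a library left out.

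Signs turned for *Hk2* in Kit+ cells (-0.0092 thinned, -0.028 in cells of 1 class, -0.048 without BU 2), for *Gapdhs* over all cells (-2.70 to 0.19 with a library left out), for *Pdha1* (0.11) and *Dlst* (0.15) in Kit+ against Gfra1+ cells without mitotic cells, and for the BU change in Kit+ cells of *Pgk2* (0.24 without mitotic cells, 0.77 with any UMI, -3.70 to 9.58 with a library left out), *Gapdhs* (0.46 with any UMI, -3.58 to 2.35 with a library left out) and *Hk1* (0.48 with any UMI, -2.41 to 1.00 with a library left out). The BU minus CTRL difference in the *Hk2* share of Kit+ cells was -4.82 points with other cell types left out and -5.65 to 25.8 with a library left out. That of the *Ldhb* share in Gfra1+ cells was 6.87 with any UMI, 1.22 with other cell types left out and -10.4 to 8.56 with a library left out, and that of the *Pfkp* share was -0.197 with any UMI and -3.45 to 13.2 with a library left out in Gfra1+ cells, and -2.85 to 7.85 with a library left out in all cells. Fold changes of the 10 genes not given in the text changed sign in 150 of 1238 refits. None of them was called in the first fit of its comparison or with the experiment as a block, but some other refits called them. The Kit+ refits without mitotic cells rest on the few cells given above. The cause of the changes in sign was not tested.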

Other observations

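Some genes of the wider lists split by experiment and not by treatment. *Pgk1*, which encodes the phosphoglycerate kinase of most tissues, was at 1.2 and 1.9 CPM in Gfra1+ cells of CTRL 1 and BU 1 and at 39.9 and 35.4 CPM in those of CTRL 2 and BU 2, and in Sox3+ cells at 1.4 and 1.2 CPM against 26.3 and 25.1 CPM, in cells of exactly 1 class. Kit, gene list and sequencing run differ between the experiments and cannot be told apart.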
